A study of Mus musculus with 6 samples.

Results

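The major histocompatibility complex (MHC) and antigen presentation genes were compared between the irradiated thalamus of mice given a control virus (RC) and that of mice given a NeuroD1 virus (RN). Members were all genes whose symbol begins with H2-, together with B2m, Tap1, Tap2, Tapbp, Psmb8, Psmb9, Psmb10, Nlrc5, Cd74 and Ciita, that had at least 1 read in any of the 6 mice. Of the 21899 genes in the count table, 44 matched by symbol and 37 had a read, of which 26 belonged to class I and 11 to class II. All 6 animals were wild-type male C57BL/6J mice of 8 to 10 weeks, and all of them had received a single dose of 50 Gy of gamma rays to the left thalamus. At 2 weeks after irradiation 2 µL of adeno-associated virus was injected into the thalamus. The RC virus was AAV9 GFAP104::tdTomato, which encodes only a red fluorescent protein, and the RN virus was AAV9 GFAP104::mND1-tdTomato, which adds mouse NeuroD1, a transcription factor of neuronal development. The GFAP104 promoter directs expression mainly to astrocytes, although AAV9 also enters neurons. At 6 weeks after irradiation the thalamus beneath the hippocampus was taken out with tweezers, following saline perfusion, and whole tissue of 3 mice per group was sequenced in bulk. The comparison addresses what NeuroD1 adds to the injected vector in irradiated tissue. Normal control mice were not analysed here.

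MHC class I molecules stand on nearly all nucleated cells and show peptides from inside the cell to CD8+ T cells and natural killer cells. The peptides are cut by proteasomes, carried into the endoplasmic reticulum by the TAP transporter and loaded onto a heavy chain bound to the light chain B2m. MHC class II molecules show peptides from the endosomal pathway to CD4+ T cells, and in the brain they are found mainly on border macrophages, infiltrating dendritic cells and B cells, and on microglia after injury. The coactivator Ciita drives the class II genes, its relative Nlrc5 drives the class I genes, and interferon gamma induces both sets.

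Library totals lay between 16561663 and 18657015 reads on genes, and 14956 genes with enough reads were tested with edgeR's quasi-likelihood test, 29 members among them. Levels are given as raw read counts or as CPM, which is counts scaled to library size after TMM normalization. A gene was called when its p, adjusted over all 14956 genes, was under 0.05 and its fold change was at least 2. Neurod1, which the RN virus carries, had counts of 84, 91 and 90 for the RC mice and 1123, 1711 and 910 for the RN mice. Its log2 fold change was 3.77 (SE 0.227, adjusted p = 0.00178), with no overlap between the groups. Summed CPM of 8 thalamic neuron markers, Tcf7l2 and Prkcd among them, ranged from 843 to 1781 among RC mice and from 608 to 1195 among RN mice, so thalamic transcripts were present in every mouse. Choroid plexus markers, led by Ttr, summed to 3893, 10697 and 646 CPM in the RC mice and to between 353 and 394 CPM in the RN mice.

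One mouse of the control group stood apart in these genes. RC replicate 1 was the highest mouse for 26 of the 29 tested members, 16 of 19 in class I and 10 of 10 in class II, whereas it was the highest mouse for 13.6% of all tested genes. Its level was at least 2-fold above the mean of the other 5 mice for 15 of the 29 members, against 1.30% of all tested genes. The 44 symbols took 0.466% of the reads of RC replicate 1, 0.200% and 0.172% in the other RC mice, and 0.199%, 0.254% and 0.230% in the RN mice. The fold change of each tested member is therefore given with all 6 mice and again without RC replicate 1. Neither fit called a member. The mouse was chosen on these same values, and leaving out the highest RC mouse raises a member's fold change by construction. In whole tissue, fewer cells of a type and less RNA per cell cannot be told apart.

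The 3 tested chains of the class II molecules were lower in RN on average, and the difference was near 0 without RC replicate 1. Transcripts of H2-Aa, the alpha chain of the I-A molecule, had counts of 7352, 1572 and 1150 for the RC mice and 1172, 1425 and 1413 for the RN mice. Its partner H2-Ab1, the I-A beta chain, had counts of 4435, 1122 and 711 for the RC mice and 794, 951 and 896 for the RN mice. For H2-Eb1, the beta chain of the I-E molecule, the counts were 4268, 1039 and 639 for the RC mice and 718, 866 and 865 for the RN mice. In all 3 chains the first RC mouse was far above every other mouse, the second RC mouse came next, and the third RC mouse was the lowest of the 6. The groups overlapped for every tested member, whereas 8.18% of all tested genes were higher and 8.12% lower in RN with no overlap. The H2-Aa mean was 191 ± 192 CPM for RC, against 75.0 ± 4.77 CPM for RN (SD, n = 3 each), and the spread of the RC mice exceeded the difference between the groups. The log2 fold change of H2-Aa was −1.35 (SE 0.601, adjusted p = 0.437 by edgeR), and −0.092 (SE 0.157) without RC replicate 1. The values were −1.27 (SE 0.571, adjusted p = 0.442) and −0.13 for H2-Ab1, and −1.30 (SE 0.591, adjusted p = 0.448) and −0.11 for H2-Eb1. The other I-E beta gene, H2-Eb2, had between 0 and 11 counts per mouse and was not tested. No gene for an I-E alpha chain was among the matched symbols, so these counts do not show whether an I-E molecule was made.

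Cd74, the invariant chain that guards the class II groove until the endosome, had the lowest p of all members. Its counts were 15232, 3414 and 2354 for the RC mice and 2254, 2558 and 3043 for the RN mice. The first RC mouse held 5.04 times the mean CPM of the other RC mice, of which the second lay above the RN range and the third within it. The log2 fold change was −1.44 (SE 0.601, unadjusted p = 0.0432, adjusted p = 0.401 by edgeR) with all mice and −0.21 (SE 0.192, adjusted p = 0.693) without RC replicate 1. Cd74 was the single member with an unadjusted p under 0.05, a mark that 11.8% of all tested genes passed. No member was among the 11 called genes, which were 0.0735% of those tested, and none was among the 1.15% of genes called by DESeq2.

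Ciita, the coactivator of class II transcription, moved with RC replicate 1 but had another order among the rest. Its counts were 173, 39 and 31 for the RC mice and 55, 65 and 55 for the RN mice. Outside RC replicate 1, each RN mouse was above both RC mice. The log2 fold change was −0.49 (SE 0.586, adjusted p = 0.828 by edgeR) with all mice and 0.67 (SE 0.285, adjusted p = 0.373) without RC replicate 1, so its direction turned.

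Among the endosomal exchange factors, the H2-DM genes varied less between the RC mice than the class II chains, whereas H2-Oa did not. H2-DMa and H2-DMb1 encode the H2-DM dimer, which removes the invariant chain remnant from class II molecules. H2-DMa had counts of 594, 320 and 358 for the RC mice and 264, 333 and 359 for the RN mice, and H2-DMb1 had 423, 186 and 189 for the RC mice and 133, 258 and 201 for the RN mice. RC replicate 1 exceeded the mean of the other RC mice 1.68-fold for H2-DMa and 2.16-fold for H2-DMb1, compared with 4.62- to 5.16-fold for the 3 class II chains. The log2 fold changes were −0.45 (SE 0.221) for H2-DMa, −0.47 (SE 0.337) for H2-DMb1 and −0.079 (SE 0.389) for the second beta gene H2-DMb2, with adjusted p of 0.496, 0.680 and 0.970 by edgeR. H2-Oa and H2-Ob, the chains of an inhibitor of H2-DM that B cells make, had at most 65 counts in a mouse. H2-Oa had 62, 18 and 8 counts for the RC mice and 19, 17 and 7 for the RN mice, and a log2 fold change of −1.05 (SE 0.729, adjusted p = 0.668). H2-Ob had 65, 21 and 25 counts for the RC mice and 22, 25 and 22 for the RN mice, and a log2 fold change of −0.71 (SE 0.456, adjusted p = 0.628). Here too the high mouse was RC replicate 1, at 4.53 and 2.71 times the mean of the other RC mice. Without RC replicate 1 the log2 fold changes were −0.15 for H2-DMa, 0.0026 for H2-DMb1 and 0.21 for H2-DMb2. Those of H2-Oa and H2-Ob were then 0.079 and −0.057.

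Over the 10 tested class II members, the median log2 fold change was −0.88 and all 10 were lower in RN, beside a median of 0.0037 over all tested genes. Without RC replicate 1 the median was −0.075, with 4 higher and 6 lower. Summed over the class II genes, the level was 1831, 464 and 314 CPM for the RC mice and 324, 350 and 385 CPM for the RN mice.

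**Figure D1:**
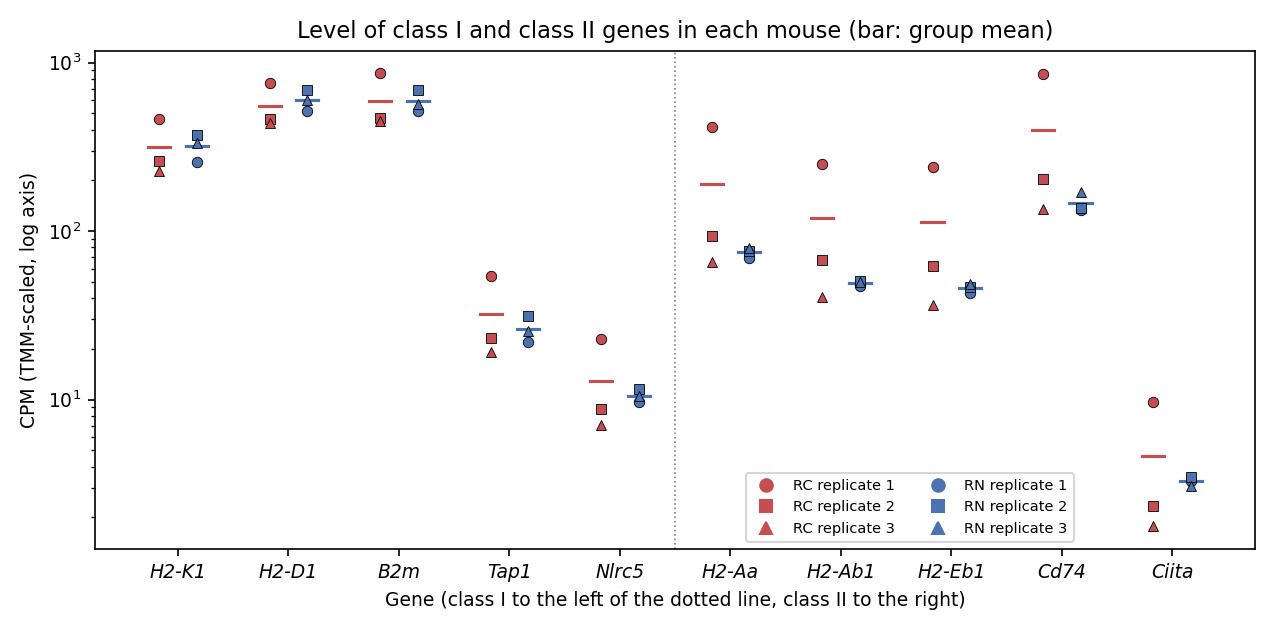
CPM of 5 class I and 5 class II genes in each mouse, on a log axis, with RC in red, RN in blue, a marker shape for each replicate and a bar for the group mean. RC replicate 1 is the highest point of all 10 genes, and its distance from the other mice is larger for H2-Aa, H2-Ab1, H2-Eb1, Cd74 and Ciita than for H2-K1, H2-D1 and B2m.

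The class II chains kept nearly constant proportions to each other in every mouse. The count of H2-Eb1 divided by that of H2-Ab1 lay between 0.899 and 0.965 across the 6 mice, RC replicate 1 included at 0.962. H2-Aa over H2-Ab1 ranged from 1.40 to 1.66 and Cd74 over H2-Ab1 from 2.69 to 3.43. The exchange factor gene did not follow the chains to the same degree, since H2-DMa over H2-Ab1 was 0.134 in RC replicate 1 and between 0.285 and 0.504 in the other mice.

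The promoters of H2-Aa and H2-Eb1 are shown because these chains moved together from mouse to mouse. Each is the 250 bases before the annotated gene start, 5′ to 3′ on the gene's strand, from RefSeq on GRCm38.p6. H2-Aa is at chr17:34287824-34288073 (minus strand) and H2-Eb1 at chr17:34305617-34305866 (plus strand). Capitals mark the Y box core ATTGG on either strand, the letters bound by the NF-Y complex that takes part in the class II enhanceosome.
H2-Aa: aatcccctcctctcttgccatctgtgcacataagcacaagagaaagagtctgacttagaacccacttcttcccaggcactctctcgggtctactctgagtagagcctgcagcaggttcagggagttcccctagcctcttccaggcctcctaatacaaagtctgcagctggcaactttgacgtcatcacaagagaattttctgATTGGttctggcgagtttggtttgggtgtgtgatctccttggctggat
H2-Eb1: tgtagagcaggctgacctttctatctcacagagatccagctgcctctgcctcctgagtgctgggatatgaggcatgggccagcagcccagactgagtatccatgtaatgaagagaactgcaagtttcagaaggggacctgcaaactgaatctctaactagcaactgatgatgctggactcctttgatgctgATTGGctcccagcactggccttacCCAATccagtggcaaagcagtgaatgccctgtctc
Of the 10 tested class II members, 7 had a window in the RefSeq table and all 7 held a Y box core, beside 33.8% of all 32851 windows of the same length. For H2-DMa this held in 1 of its 2 windows. An X box core, searched as AGNNACAGA on both strands, was in the window of H2-Oa alone among the 7 and in 7.04% of all windows. An interferon-stimulated response element core (GAAANNGAA) was in 0 of the 7 windows, and in 7.13% of all windows. These matches are exact letters in a window and no record of binding. Elements with other letters were not counted, so a window without a match may still hold one.

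Among class I genes, the classical heavy chains and their light chain had the highest levels and nearly equal means in both groups. H2-K1, which encodes the heavy chain of the K molecule, had counts of 8203, 4341 and 3945 for the RC mice and 4295, 6940 and 5954 for the RN mice. H2-D1, the D heavy chain, had counts of 13526, 7730 and 7625 for the RC mice and 8702, 12884 and 10740 for the RN mice. B2m, the light chain shared by class I molecules, had counts of 15377, 7828 and 7881 for the RC mice and 8628, 12809 and 10127 for the RN mice. RC replicate 1 was again the highest mouse, by 1.69- to 1.90-fold over the mean of the other RC mice, and RN replicate 2 came second for all 3 genes. Mean levels in RC and RN were 315 ± 127 and 320 ± 58.9 CPM for H2-K1, 552 ± 179 and 602 ± 85.6 CPM for H2-D1, and 594 ± 233 and 588 ± 87.9 CPM for B2m (SD, n = 3 each). The log2 fold changes were 0.021 (SE 0.260), 0.12 (SE 0.211) and −0.014 (SE 0.244), with adjusted p of 0.987, 0.889 and 0.991 by edgeR. Without RC replicate 1 they were 0.40 (SE 0.164), 0.42 (SE 0.127) and 0.36 (SE 0.129), with adjusted p of 0.361, 0.236 and 0.308. For H2-D1 and B2m every RN mouse was then above both remaining RC mice, while the H2-K1 level of RN replicate 1, at 255 CPM, was below that of RC replicate 2, at 259 CPM.

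Nlrc5 and Tap1 had lower levels than the classical chains and wider differences between the RC mice. Nlrc5, the coactivator of class I transcription, had counts of 411, 147 and 123 for the RC mice and 162, 216 and 188 for the RN mice. Tap1, a subunit of the peptide transporter, had counts of 966, 389 and 335 for the RC mice and 372, 586 and 456 for the RN mice. RC replicate 1 was 2.91 and 2.55 times the mean of the other RC mice for these genes, beside 1.69 to 1.90 times for H2-D1, B2m and H2-K1. The log2 fold change of Nlrc5 was −0.30 (SE 0.404, adjusted p = 0.857 by edgeR) with all mice and 0.42 (SE 0.184, adjusted p = 0.393) without RC replicate 1. That of Tap1 was −0.29 (SE 0.360, adjusted p = 0.840) and 0.31 (SE 0.182, adjusted p = 0.514). Tap2, the other transporter subunit, had a log2 fold change of −0.37 (SE 0.226, adjusted p = 0.602), and Tapbp, the tapasin that bridges the transporter and the heavy chain, one of 0.00080 (SE 0.178, adjusted p = 1.00). RC replicate 1 stood less far above the other RC mice for Tap2 and Tapbp, at 1.64 and 1.43 times their mean. Unlike Nlrc5 and Tap1, Tap2 stayed on the negative side without RC replicate 1, at −0.093. Tapbp was then at 0.19.

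Psmb8, Psmb9 and Psmb10 encode the catalytic subunits of the immunoproteasome, which replace Psmb5, Psmb6 and Psmb7 of the constitutive proteasome. Psmb8 had counts of 906, 462 and 430 for the RC mice and 341, 492 and 450 for the RN mice, and a log2 fold change of −0.52 (SE 0.264, adjusted p = 0.503 by edgeR) and of −0.13 without RC replicate 1. Psmb9 had 317, 112 and 102 counts for the RC mice and 122, 163 and 130 for the RN mice, and Psmb10 had 698, 487 and 490 for the RC mice and 478, 593 and 525 for the RN mice. Their log2 fold changes were −0.38 (SE 0.398) and −0.11 (SE 0.144), with adjusted p of 0.794 and 0.857. Without RC replicate 1 they turned to 0.31 and 0.061. Set against the subunit that each replaces, the immunoproteasome was high in 1 mouse only. The count of Psmb8 over that of Psmb5 was 0.738 in RC replicate 1 and between 0.262 and 0.343 in the other 5 mice. Psmb9 over Psmb6 was 0.223 in RC replicate 1 and 0.0647 to 0.104 elsewhere, and Psmb10 over Psmb7 was 0.380 and 0.244 to 0.257. The 10 constitutive proteasome and activator genes summed to between 851 and 891 CPM in all 6 mice.

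Promoters of 3 class I members are shown for comparison with those of the class II chains, again as the 250 bases upstream of the gene start from RefSeq on GRCm38.p6. H2-K1 is at chr17:34000334-34000583 (minus strand), B2m at chr2:122147437-122147686 (plus strand) and Tap1 at chr17:34187306-34187555 (plus strand). Capitals mark the Y box core ATTGG, the kappaB site GGGATTCCC of NF-kappaB in H2-K1, and the interferon-stimulated response element core GAAANNGAA in B2m, on either strand.
H2-K1: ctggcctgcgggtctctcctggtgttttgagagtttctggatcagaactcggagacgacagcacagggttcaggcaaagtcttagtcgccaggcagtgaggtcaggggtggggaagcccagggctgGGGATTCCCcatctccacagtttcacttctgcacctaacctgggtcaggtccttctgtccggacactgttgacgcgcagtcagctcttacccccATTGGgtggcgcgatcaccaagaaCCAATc
B2m: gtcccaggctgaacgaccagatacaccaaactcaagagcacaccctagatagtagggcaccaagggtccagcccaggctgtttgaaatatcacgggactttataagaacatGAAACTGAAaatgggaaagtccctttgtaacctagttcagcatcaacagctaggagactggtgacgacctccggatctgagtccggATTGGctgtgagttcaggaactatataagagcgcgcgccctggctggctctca
Tap1: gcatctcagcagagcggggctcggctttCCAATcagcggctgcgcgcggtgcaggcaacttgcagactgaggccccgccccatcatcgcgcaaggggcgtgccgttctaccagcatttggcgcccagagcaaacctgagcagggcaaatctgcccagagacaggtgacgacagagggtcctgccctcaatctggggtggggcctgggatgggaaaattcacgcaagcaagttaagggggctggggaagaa
Windows were found for 15 of the 19 tested class I members. The Y box core was in 13 of them, and the exact letters GAAANNGAA in those of B2m, H2-T22 and H2-T23. A response element with other letters, in H2-K1 or elsewhere, was not searched for. The kappaB letters were in the windows of H2-D1, H2-K1, H2-Q6 and H2-Q7, 4 of 15, beside 0.301% of all windows, and in 0 of the 7 class II windows. The X box core was in those of H2-M3 and Psmb10. Tap1 and Psmb9 are read away from each other, with 225 bases between their first bases, so the window shown for Tap1 covers the start of Psmb9 as well.

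The non-classical heavy chains differed among themselves more than the classical ones. H2-Q4 had the lowest p of these, with counts of 1401, 563 and 519 for the RC mice and 444, 615 and 575 for the RN mice, and a log2 fold change of −0.63 (SE 0.339, adjusted p = 0.541 by edgeR), which was −0.056 without RC replicate 1. H2-Q6 and H2-Q7, genes of the Qa-2 antigen, had log2 fold changes of −0.57 (SE 0.344, adjusted p = 0.602) and −0.54 (SE 0.411, adjusted p = 0.707). Without RC replicate 1 these were 0.013 and 0.12. In these 3 Q genes RC replicate 1 was 2.48 to 2.74 times the mean of the other RC mice, a larger distance than for H2-K1 or H2-D1. H2-Q2 differed from them, with 69, 61 and 20 counts for the RC mice and 91, 117 and 62 for the RN mice. Its log2 fold change was 0.80 (SE 0.438, adjusted p = 0.550) with all mice and 1.08 without RC replicate 1, and RN replicate 2 was its highest mouse. The groups overlapped in CPM, since RN replicate 3 lay at 3.47 CPM, below RC replicates 1 and 2 at 3.87 and 3.65 CPM. H2-Q1, with at most 36 counts in a mouse, had a log2 fold change of 0.51 (SE 0.778, adjusted p = 0.877). Without RC replicate 1 it was 1.43 (SE 0.869).

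Genes of the T and M regions had log2 fold changes between −0.19 and 0.25 with all mice. H2-T23, which encodes the Qa-1 heavy chain seen by inhibitory receptors of natural killer cells, had counts of 1705, 712 and 699 for the RC mice and 810, 1304 and 1143 for the RN mice. Its log2 fold change was 0.029 (SE 0.322, adjusted p = 0.985 by edgeR) with all mice and 0.55 (SE 0.165, adjusted p = 0.234) without RC replicate 1, when each RN mouse was above both RC mice. H2-T24 had log2 fold changes of 0.25 (SE 0.232, adjusted p = 0.771) and, without that mouse, 0.51. H2-T22, whose protein is a ligand of some gamma delta T cells, had a log2 fold change of −0.13 (SE 0.176, adjusted p = 0.857). H2-M3, which presents formylated peptides of bacteria and mitochondria, had a log2 fold change of −0.19 (SE 0.220, adjusted p = 0.825). Without RC replicate 1, H2-T22 was at 0.11 and H2-M3 at 0.062. The 7 class I genes with too few reads for the test were H2-Bl, H2-M1, H2-M2, H2-M5, H2-M10.4, H2-Q10 and H2-T3, with at most 16 counts in a mouse. A further 7 names of the H2-M group had 0 counts in every mouse, which allows up to 3 counts, or 0.161 to 0.181 CPM, in a library.

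Across the 19 tested class I members the median log2 fold change was −0.13, with 7 higher and 12 lower. Without RC replicate 1 the median was 0.31, with 16 higher and 3 lower, beside a median of 0.0033 over all tested genes. B2m, H2-D1, H2-K1, H2-T23 and H2-T24 then had an unadjusted p under 0.05 in the higher direction, as 6.72% of all tested genes did, and their lowest adjusted p was 0.234. In that comparison of 2 against 3 mice, 7 of the 29 tested members were higher in RN with no overlap, namely B2m, Nlrc5, Psmb9, H2-D1, H2-T23, H2-T24 and Ciita, beside 15.4% of all tested genes. RC replicate 1 was left out because it was the highest mouse for 26 of the 29 members, so a rise was built into that choice. It was the highest for 13.6% of all tested genes, so the values over all genes are not a like-for-like background. Summed class I levels were 2757, 1569 and 1440 CPM for the RC mice and 1641, 2179 and 1910 CPM for the RN mice. Both classes had the same order of RC mice, with replicate 1 first and replicate 3 last. The reads of all class II members divided by those of all class I members gave 0.664, 0.295 and 0.218 for the RC mice and 0.198, 0.161 and 0.202 for the RN mice. This ratio was lower in each RN mouse than in each RC mouse, as were H2-Aa over H2-K1 (0.292 to 0.896 in RC and 0.205 to 0.273 in RN) and H2-Q4 over H2-K1 (0.130 to 0.171 in RC and 0.0886 to 0.103 in RN). All other ratios computed within a mouse overlapped between the groups, among them B2m over H2-K1, H2-T23 over H2-K1 and Cd74 over H2-Ab1. The share of all gene pairs without overlap was not computed. The ratios named as lower were chosen after the values were seen and are given without a test.

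**Figure D2:**
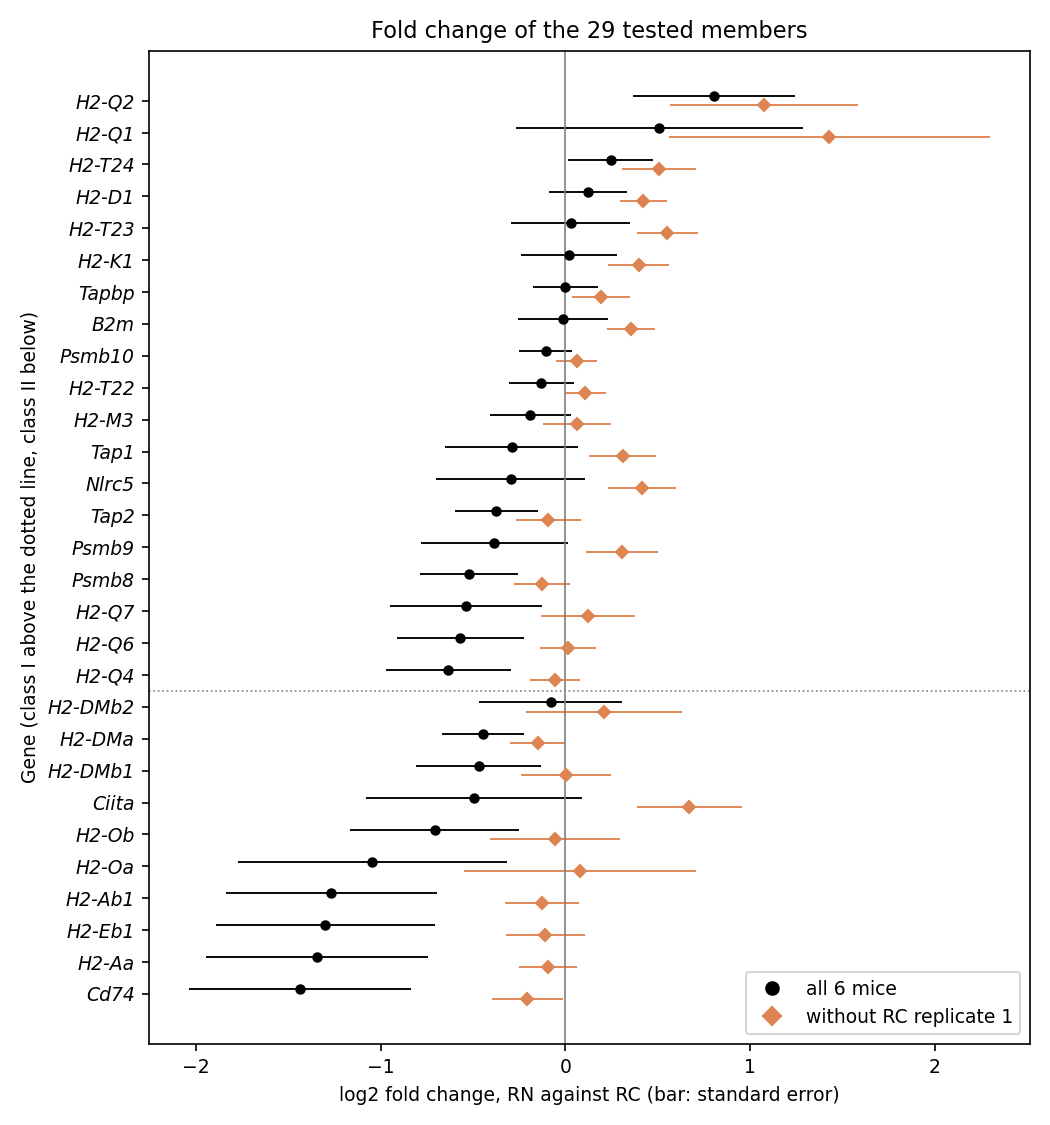
Log2 fold change of RN against RC, with standard error, for the 19 class I and 10 class II members tested, using all 6 mice (black circles) or leaving out RC replicate 1 (orange diamonds). Class II members lie between −1.44 and −0.079 with all mice, and the class I median shifts from −0.13 to 0.31 when that mouse is left out.

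**Figure D3:**
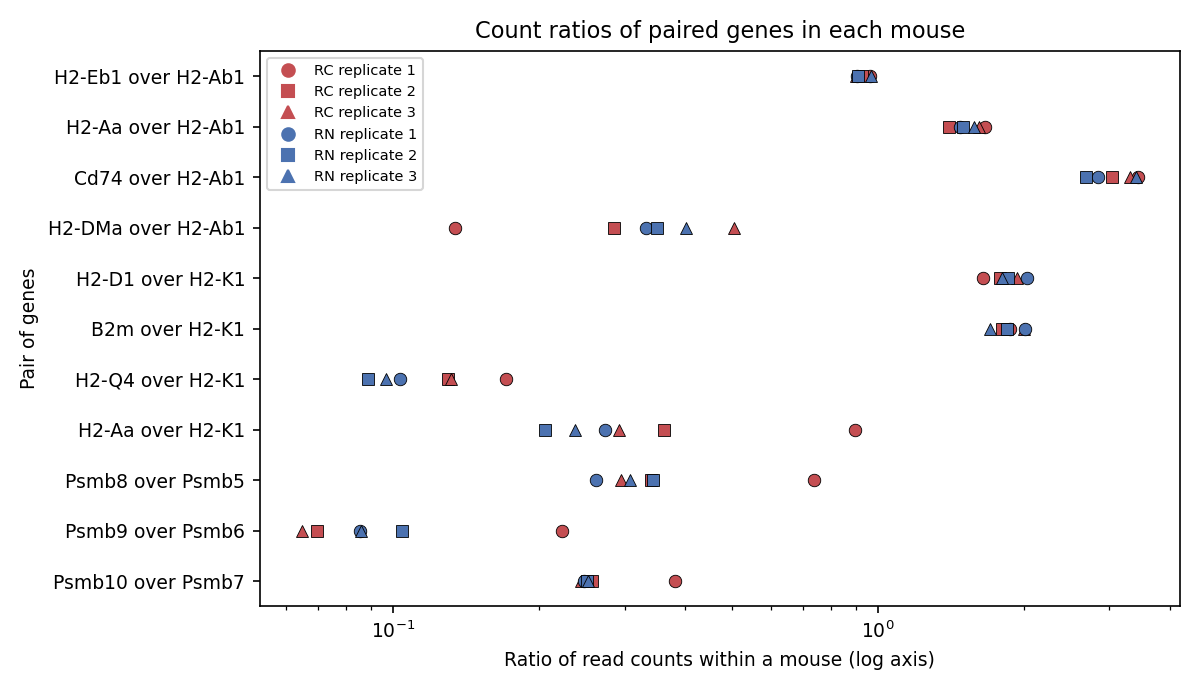
Ratio of read counts of paired genes within each mouse, on a log axis, with RC in red and RN in blue. The pairs of class II chains and of classical class I genes lie close together in all 6 mice, whereas RC replicate 1 lies apart for the 3 immunoproteasome pairs, for H2-Aa over H2-K1 and for H2-DMa over H2-Ab1.

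Levels of different genes were compared per length, as CPM divided by the exon length in kilobases from the GENCODE M21 annotation. By this measure B2m was first in both groups, at 691 ± 271 in RC and 684 ± 102 in RN (SD, n = 3 each). Cd74 followed in RC, at 237 ± 236, and in RN, at 87.6 ± 11.97, came behind H2-D1 at 234 ± 33.2 and H2-K1 at 109 ± 20.0. In RC, H2-D1 at 214 ± 69.4 and H2-K1 at 107 ± 43.1 did not differ from Cd74 beyond its spread. The rank of Cd74 in RC rested on RC replicate 1, at 509 for Cd74 and 294 for H2-D1. In RC replicates 2 and 3 Cd74 was at 122 and 80.3, below H2-D1 at 179 and 169. The 3 class II chains had means between 46.3 and 58.0 in RC (SD 44.1 to 56.8) and between 19.2 and 23.6 in RN (SD 0.744 to 1.47). The RC means rested on RC replicate 1, at 96.9 to 123. The other RC mice lay between 15.9 and 31.9 and the RN mice between 18.4 and 24.9. Nlrc5 and Ciita, the coactivators, were low by the same measure, at 1.53 ± 1.03 and 0.483 ± 0.464 in RC and at 1.24 ± 0.113 and 0.343 ± 0.0210 in RN. The counts of some paralogs are less certain than others, since reads from shared stretches could be assigned to either gene. Of all 50-base stretches in the exons of H2-T22, 53.5% also occur in another gene, mostly H2-T10, and the shares were 35.0% for H2-Q6, 36.4% for H2-Q4 and 25.9% for H2-DMb2. They were 0% for B2m, Cd74, H2-Ab1 and H2-Eb1, 0.514% for H2-Aa, 9.63% for H2-K1 and 12.8% for H2-D1.

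Genes that work beside the members were looked at in 8 lists, and edgeR called none of their tested genes, while DESeq2 called 1, the receptor Lag3. The lists were chosen with earlier results of these data known. Of the chaperones that fold and load class I molecules, 5 of 7 were higher and 2 lower in RN, with a median log2 fold change of 0.076. The lowest p in this list belonged to Pdia3, the thiol oxidoreductase of the loading complex, at 0.15 (adjusted p = 0.644 by edgeR). For Hspa5 and Calr, both chaperones of the endoplasmic reticulum, the log2 fold changes were 0.25 and 0.14. The constitutive proteasome and its activators had a median of −0.042, with all 10 genes between −0.085 and 0.11, the ends being Psma7 and Psmb7, and Psmb6 at −0.071.

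The endosomal proteases and related genes that prepare class II ligands had no called gene. Of the 12 genes, 11 were higher in RN and the median log2 fold change was 0.26. Ctsl, a cathepsin that degrades the invariant chain, had counts of 2853, 2946 and 2558 for the RC mice and 3562, 6366 and 4864 for the RN mice, with no overlap between the groups. Its log2 fold change was 0.77 (SE 0.165, adjusted p = 0.126 by edgeR and 0.000536 by DESeq2), below the fold threshold in either case. Ctsb, another lysosomal cathepsin, had counts of 28882, 31760 and 28765 for the RC mice and 33725, 52107 and 43875 for the RN mice, again without overlap. Its log2 fold change was 0.49 (SE 0.126, adjusted p = 0.175 by edgeR and 0.0160 by DESeq2), also below the fold threshold. That of the asparaginyl endopeptidase Lgmn was 0.39 (SE 0.165, adjusted p = 0.402 by edgeR and 0.253 by DESeq2). RC replicate 1 was not the highest mouse for any of these 12 genes.

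Regulators of MHC transcription had small differences between the groups, and none was called. The 11 genes of the RFX, NF-Y and NF-kappaB factors and their partners had a median log2 fold change of 0.036, with Kat2b at −0.28 (adjusted p = 0.493 by edgeR), Rela at −0.18 and Nfyb at 0.16. Rela was lower in RN with no overlap. Among 15 tested genes of interferon signalling, 10 were higher and 5 lower, with a median of 0.032. Irf7, a factor induced by type I interferon, had counts of 743, 420 and 405 for the RC mice and 657, 1230 and 1103 for the RN mice, and a log2 fold change of 0.89 (SE 0.262, adjusted p = 0.217 by edgeR and 0.0167 by DESeq2). Irf8, a factor of myeloid cells, had counts of 612, 497 and 494 for the RC mice and 610, 744 and 724 for the RN mice, and a log2 fold change of 0.34 (SE 0.109, adjusted p = 0.257), and Ifngr2, a chain of the interferon gamma receptor, had one of 0.21 (SE 0.0835, adjusted p = 0.374). In CPM both were higher in every RN mouse than in every RC mouse. Irf1, another interferon-induced factor, named after its values were seen, also had RC replicate 1 far above the rest, with the RN mice above the other RC mice. It had counts of 770, 257 and 273 for the RC mice and 349, 356 and 327 for the RN mice. The fitted log2 fold change turned from −0.35 with all mice to 0.32 without RC replicate 1. The interferons themselves were scarcely read, with 0 to 5 counts of Ifng and 0 of Ifnb1 in each mouse, so a difference in them was not detectable at this depth.

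Class I-like genes outside the H2 names had a median log2 fold change of −0.24 over 6 tested genes, 5 of which were lower in RN. Procr, an endothelial receptor of protein C, was at −0.74 (SE 0.321, adjusted p = 0.421 by edgeR), and Ulbp1, a ligand of the receptor NKG2D, was at −0.87 (SE 0.384, adjusted p = 0.431) with no overlap. Cd1d1, which presents lipids, was at 0.74 (SE 0.407, adjusted p = 0.559). Of the 7 tested costimulation and checkpoint ligands, 5 were higher and 2 lower, with a median of 0.12. Cd83, a surface protein of activated antigen presenting cells, was at 0.32 (SE 0.121, adjusted p = 0.350) with no overlap, Cd86 at 0.36 and Icosl at −0.36. Cd274, the PD-L1 ligand, named after its values were seen, had counts of 819, 212 and 187 for the RC mice and 257, 319 and 327 for the RN mice, again with RC replicate 1 far above the rest. Of 8 tested receptors that bind MHC molecules, 5 were higher and 3 lower. Lag3, an inhibitory receptor for class II that microglia also express, had counts of 198, 178 and 162 for the RC mice and 333, 497 and 305 for the RN mice, without overlap. Its log2 fold change was 1.03 (SE 0.187, adjusted p = 0.0967 by edgeR and 0.000244 by DESeq2). Pirb, a class I receptor of myeloid cells, was at 0.58 (SE 0.243, adjusted p = 0.406), and Cd8a, the class I coreceptor of T cells, at −1.15 (SE 0.518, adjusted p = 0.439).

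Markers of the cell types that present antigen were set beside these values, and their part in the results was not tested. The 11 microglia and macrophage markers summed to 1296 CPM in RC replicate 1, to 1440 and 1316 CPM in the other RC mice and to between 1136 and 1605 CPM in RN, so this list did not single out RC replicate 1. The 7 B cell markers did, at 120 CPM beside 40.8 and 27.0 CPM in RC and 22.1 to 29.5 CPM in RN. Within it the antibody genes Ighm, Igkc and Jchain had 1021, 803 and 287 counts in RC replicate 1, whereas the B cell surface gene Ms4a1 had at most 6 counts in any mouse. The 10 T cell markers summed to 41.3 CPM in RC replicate 1, 21.8 and 23.4 CPM in the other RC mice and 15.0 to 27.5 CPM in RN. RC replicate 1 was the highest mouse for 8 of the 9 tested T cell markers. Cd8a had 125 counts there and 20 to 40 in the rest, whereas Cd4, the class II coreceptor, had 62 counts there, 91 and 101 in the other RC mice and 47 to 244 in RN, and Trac had 83 counts there beside 76 in RC replicate 2.
The 8 dendritic cell markers summed to 66.8 to 98.7 CPM in RC and 125 to 190 CPM in RN, a sum taken up mostly by Itgax, which microglia also express after injury, at a log2 fold change of 1.09 (SE 0.213, adjusted p = 0.108 by edgeR and 2.95e-05 by DESeq2, which called it). Ccr7 of migratory dendritic cells had 45 counts in RC replicate 1 and 8 to 15 elsewhere, and Xcr1 of cross-presenting dendritic cells had 26 counts there and 1 to 7 elsewhere. Clec9a and Flt3 were also highest in RC replicate 1, at 18 counts beside 3 to 11 and at 218 beside 137 to 184. The summed list did not single out that mouse, nor did Itgax, Cd209a (7 counts there and 6 to 12 elsewhere), Siglech (59 and 34 to 71) or Zbtb46 (121 and 89 to 157). Endothelial markers summed to between 360 and 421 CPM in RC and between 263 and 324 CPM in RN, with RC replicate 1 the highest, and 4 of the 8 were lower in RN with no overlap. Astrocyte markers summed to 4831 to 6114 CPM in RC and 3365 to 4410 CPM in RN, and the fibroblast markers of meninges and vessels to 98.5 to 188 and 167 to 299 CPM. When edgeR took the choroid plexus score as a covariate, no member was called and the median log2 fold changes were 0.20 in class I and −0.17 in class II. The summed choroid plexus markers were higher in every RC mouse than in any RN mouse, so this fit cannot separate the score from group.

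**Figure D4:**
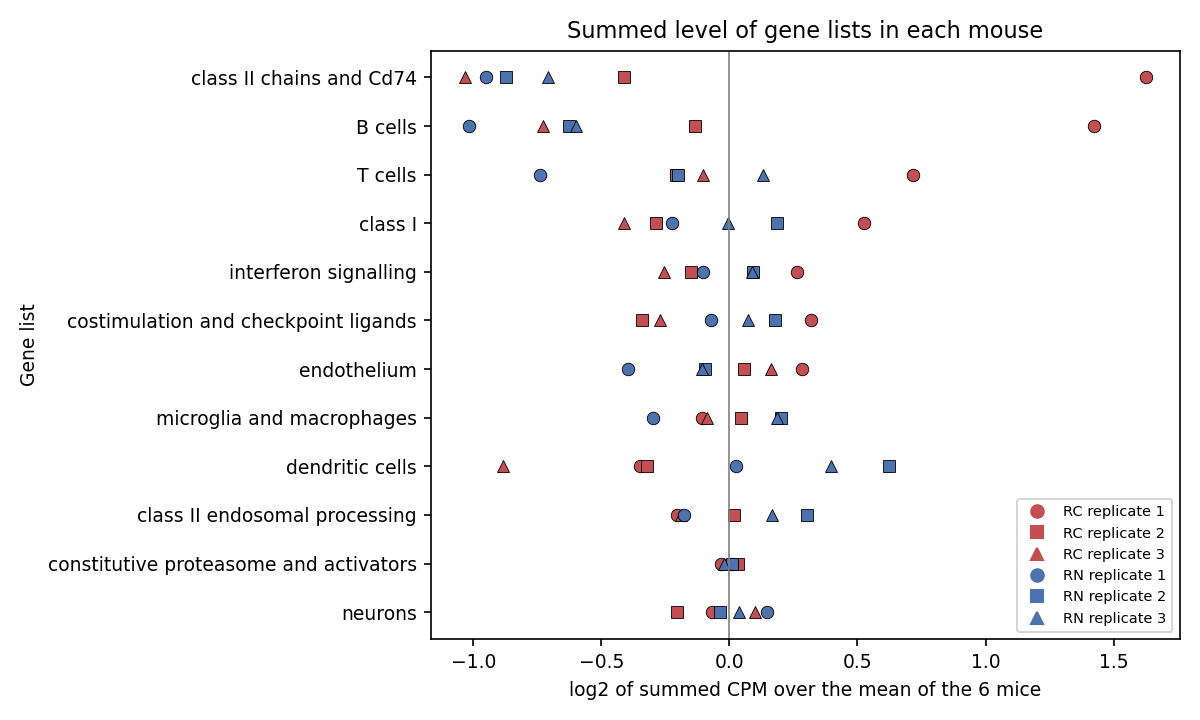
Log2 of the summed CPM of gene lists in each mouse over the mean of the 6 mice, with RC in red and RN in blue. RC replicate 1 lies far to the right for the class II chains with Cd74 (1755 CPM beside 278 to 427 CPM in the other mice) and for B cells, less so for T cells and class I, and among the other mice for microglia and macrophages, the constitutive proteasome and neurons.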

How the data were processed

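Thalamic RNA (3 mice in RC, 3 in RN) was prepared with a NEBNext kit and read on an Illumina NovaSeq. The authors deposited raw whole-number counts per gene without normalization. The submitters' processing notes name fastp 0.18.0, FastQC, HISAT2 and RSEM 1.2.19 and the build GRCm39, without order or parameters. How reads shared between genes, or strand, were handled is not given in the sources used here. Samples were grouped by their labels.

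Genes were filtered with edgeR 4.0.16 under R 4.3.3 (filterByExpr, minimum count 10), counts were scaled by TMM, and group alone was fitted, with Benjamini-Hochberg adjustment over 14956 genes. DESeq2 1.42.0, the study's test, was run as an alternative, as were other filters and scalings, a choroid plexus score as covariate, and each mouse left out. The procedure was tested on simulated data with the same spread for every gene and no outlying mouse. That test does not cover members in which RC replicate 1 stands apart. Members, gene lists and tests were chosen with earlier results of these data known. All tested members are named, and fuller statistics go to H2-K1, H2-D1, B2m, Nlrc5, Tap1, H2-Aa, H2-Ab1, H2-Eb1, Cd74 and Ciita and to the 3 members of lowest p in each class, and of each list up to 3 genes of lowest p are named. Chromosome positions and motifs come from RefSeq on GRCm38.p6 (29 of 37 members had a window), and exon lengths from GENCODE M21, not from the build of the counts. RC and RN share replicate numbers. Deviations of same-numbered mice correlated at 0.173, 0.120 and 0.209 across genes, so numbers were treated as pairs in an alternative fit. The limit that a count of 0 allows covers counting error only.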

Additional observations from a re-analysis of the deposited data

How the results depend on the processing

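No member was called under any alternative: DESeq2, its size factors within edgeR, no filter, 10 counts in every mouse, no fold threshold, the replicate block, the choroid plexus score, the robust option of edgeR (added after seeing the data) or any mouse left out. Over all genes, 9 were called higher and 2 lower in RN. The counts were 99 and 87 with DESeq2, 36 and 7 without a filter, 17 and 5 with the replicate block, and 0 and 1 with the choroid plexus score, and 3 to 26 and 0 to 18 with a mouse left out, where the fewest higher came without RC replicate 2 or RN replicate 2, the most higher without RN replicate 1 and the most lower without RC replicate 3. The causes were not tested. The choroid plexus score went with group, so the fit that holds it cannot separate the score from group. The class I median log2 fold change was −0.13, −0.10 with the block, and −0.27 to 0.31 with a mouse left out, the upper end being without RC replicate 1. The class II median was −0.88, −0.69 with the block, and −1.21 to −0.07 with a mouse left out, the last without RC replicate 1.

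Among the 13 members given with fuller statistics, the direction of 6 turned in some settings. With a mouse left out, the log2 fold change ranged from −0.17 to 0.40 for H2-K1, −0.018 to 0.42 for H2-D1, −0.18 to 0.36 for B2m, −0.59 to 0.42 for Nlrc5, −0.56 to 0.31 for Tap1 and −0.88 to 0.67 for Ciita, in each case lowest without RC replicate 3 and highest without RC replicate 1. B2m was 0.047 with the replicate block. With the choroid plexus score B2m was 0.20, Nlrc5 0.26, Tap1 0.20 and Ciita 0.30. The block changed no other direction. With an RC spread near or above the RC mean for the class II chains and Cd74, class II differences of the size seen could not be separated from the variation between mice.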
